A study of Mus musculus with 6 samples.

Results

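The 10 serotonin receptor genes described here are Htr1a, Htr1b, Htr1d, Htr1f, Htr2a, Htr2c, Htr4, Htr5a, Htr5b and Htr7, taken by gene symbol from the 24946 named genes measured in each library. In lateral septum (LS) Nts neurons, 1 of them was strongly enriched and 2 were depleted: Htr5b was 6.23-fold higher in IP than in Input, Htr2a was 9.51-fold lower and Htr1d was 2.61-fold lower, as ratios of group means. These 3 of 10 genes past 2-fold compare with 29.8% of all tested genes. The most abundant receptor RNA per kilobase was Htr7 in both groups. The study profiled these neurons by viral-TRAP, in which a virus makes chosen cells express a GFP-tagged ribosomal protein and an anti-GFP antibody then pulls down their ribosomes with the RNA being translated. The IP libraries hold that RNA, and the Input libraries hold total RNA of the same dissected LS tissue, set aside before the immunoprecipitation. Nts-Cre mice on a C57Bl6J background, in which the neurotensin gene drives Cre recombinase, received the Cre-dependent vector AAV5-Introvert in the LS. All mice of both groups carried the Cre allele and the vector. Tissue was taken 3 or 4 weeks later in 3 pools of 4 to 6 mice, and each pool gave 1 IP library and 1 Input library. Libraries that share a replicate number are taken here as 1 pool, which the protocol implies and the labels do not state. The study used adult mice of both sexes, and their make-up in each pool is not stated. A ribosome-bound sample of 1 cell type was therefore set against total RNA of a whole tissue, and fewer cells of a type in the tissue cannot be told apart from less RNA per cell.

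Values are read counts that the authors divided by a factor for each library, called normalized counts below. Libraries summed to 22781827 to 24958423 normalized counts in IP and 16828024 to 17129150 in Input, which by the estimated worth of 1 read is about 9892461 to 10956808 reads in IP and 9318913 to 9809571 reads in Input. The labelled cell type was checked by its markers. Nts had 2251, 3346 and 1783 normalized counts in IP of pools 1, 2 and 3, against 80.0, 149.7 and 209.9 in Input. Under the deposited scaling all 4 LS markers and all 5 GABAergic neuron markers were higher in IP, and all 8 astrocyte, all 8 oligodendrocyte and all 7 microglia markers were lower. The shares over all tested genes were 31.4% higher and 32.2% lower. Other lists were less uniform. Of 7 endothelial and mural markers 4 were lower, and none of 6 tested choroid plexus markers passed. Of 7 striatal markers 1 was higher and 6 lower, and of 13 pan-neuronal genes 9 were higher and 2 lower. Both groups were compared with limma on log2(value + 1) over the 14859 genes that reached 10 normalized counts in 3 or more libraries, and a gene passed the test at a Benjamini-Hochberg adjusted p under 0.05. The same 6 libraries can also be compared for 1 gene by an exact two-sided permutation test, whose smallest p with 3 against 3 is 0.1, so that it cannot reach 0.05.

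Serotonin reaches the septum through axons of the raphe nuclei, and the receiving cell's response depends on which receptors it makes. Receptors of the Htr1 and Htr5a type couple to Gi/o proteins, which lower cyclic AMP and can open GIRK potassium channels. Receptors of the Htr2 type couple to Gq/11 and phospholipase C, and Htr4, Htr6 and Htr7 couple to Gs and raise cyclic AMP. Htr3 genes encode ligand-gated ion channels. The LS is densely innervated by serotonin fibres and is known for its Htr1a receptors.

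All 10 genes passed the filter on low values. At the adjusted p alone, Htr5b, Htr1b and Htr7 were higher in IP (3 genes), although the sign of Htr7 turned under 2 other scalings given below. Htr2a and Htr1d were lower (2 genes), and the remaining 5, Htr1a, Htr1f, Htr2c, Htr4 and Htr5a, did not pass. The background was 31.4% of all tested genes higher and 32.2% lower, or 63.7% in either direction, so 5 of 10 was not a high count. With a change of more than 2-fold required as well, 1 gene was enriched and 2 were depleted, where 12.6% and 17.2% of all tested genes were, or 29.8% in either direction. The IP libraries lay wholly above those of Input for 3 genes and wholly below for 2, and those shares were 34.2% and 35.4% over all tested genes. The median log2 fold change of the 10 genes was -0.05, beside -0.06 for all tested genes. The 10 genes thus did not move as a group, and their log2 fold changes ranged between -3.78 for Htr2a and 2.83 for Htr5b.

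**Figure D1:**
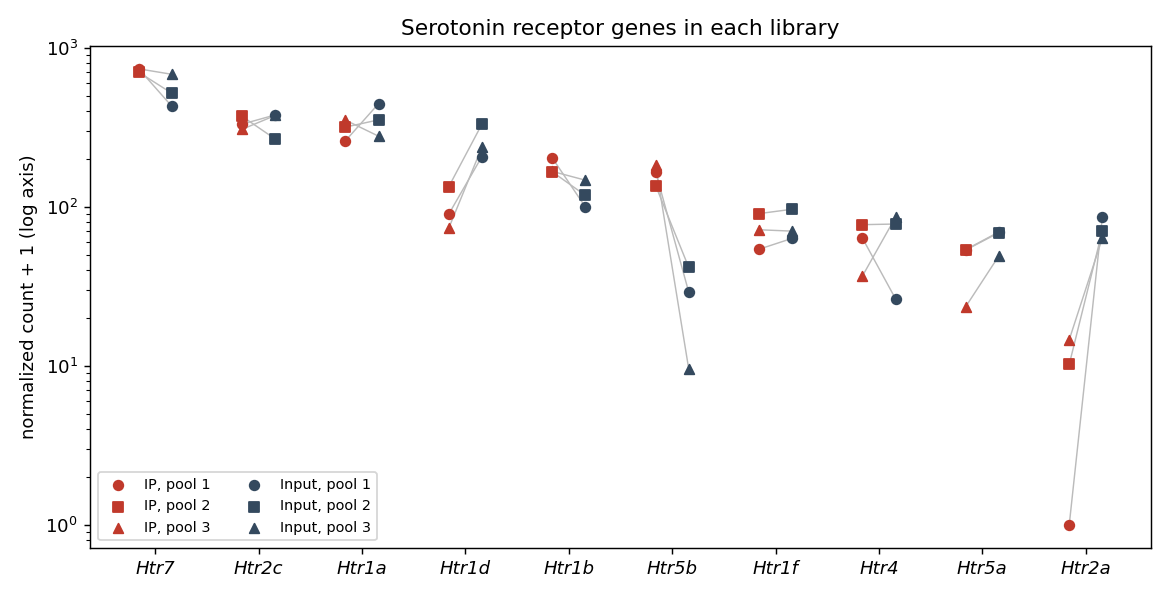
Normalized count + 1 on a log axis for the 10 serotonin receptor genes in each library, with IP (red) left of Input (dark blue), a marker shape for each pool and a grey line joining the IP and Input libraries of 1 pool. Htr5b, Htr1d and Htr2a have groups that lie well apart, while those of Htr4, Htr2c, Htr1a, Htr1f and Htr5a overlap.

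The genes that passed the test and have an entry in the promoter table of RefSeq are Htr1b, Htr1d, Htr2a and Htr7, and the sequence just before the start of each is shown so that the regulatory sequence of these members can be read beside their levels. Each runs 5′ to 3′ on the gene's strand and holds only bases upstream of the gene's start in both RefSeq and GENCODE. Capitals mark matches to 4 short motifs searched on both strands, the TATA box TATAAA, the GC box GGGCGG, the CCAAT box CCAAT and the E-box CACGTG. The windows are on GRCm38.p6, at chr9:81633833-81634082 (minus strand) for Htr1b, chr4:136423274-136423523 (plus strand) for Htr1d, chr14:74640624-74640839 (plus strand) for Htr2a and chr19:36057508-36057610 (minus strand) for Htr7.
Htr1b: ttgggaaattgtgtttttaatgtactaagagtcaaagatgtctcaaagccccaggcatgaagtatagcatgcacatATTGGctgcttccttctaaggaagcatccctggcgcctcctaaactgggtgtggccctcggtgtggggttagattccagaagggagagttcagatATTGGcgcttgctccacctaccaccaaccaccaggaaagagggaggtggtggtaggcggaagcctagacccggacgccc
Htr1d: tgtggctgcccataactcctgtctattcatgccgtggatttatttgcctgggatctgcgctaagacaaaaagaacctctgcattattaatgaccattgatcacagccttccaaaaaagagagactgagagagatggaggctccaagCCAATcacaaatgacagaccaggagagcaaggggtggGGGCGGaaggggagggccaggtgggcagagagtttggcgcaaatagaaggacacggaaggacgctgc
Htr2a: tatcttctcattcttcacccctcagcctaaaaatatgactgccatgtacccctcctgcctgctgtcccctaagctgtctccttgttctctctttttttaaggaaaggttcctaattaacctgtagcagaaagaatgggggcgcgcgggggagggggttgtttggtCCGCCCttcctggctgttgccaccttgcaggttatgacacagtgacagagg
Htr7: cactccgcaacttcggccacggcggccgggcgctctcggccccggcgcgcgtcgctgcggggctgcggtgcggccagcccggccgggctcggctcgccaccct
The Htr1b window held the CCAAT box on the reverse strand at 2 places, and 33.8% of the 32851 RefSeq promoters of the same length held it at least once. The Htr1d window held a CCAAT box and a GC box, the second of which 32.7% of promoters of that length held. The Htr2a window of 216 bases held a GC box on the reverse strand, as 27.9% of promoters cut to that length did. The Htr7 window of 103 bases held none of the 4 motifs, and its GC content was 82.5%, beside a median of 50.5% over all promoters cut to that length. Promoters were cut by keeping their upstream end, so the cut windows need not reach the start of their gene. The Htr2a and Htr7 windows do reach the GENCODE start, which limits these 2 comparisons. The GC content of the other windows was 52.4% for Htr1b, 51.6% for Htr1d and 51.4% for Htr2a. These matches describe the sequence and were not tested against the measurements.

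Htr5b was the member most enriched in IP. It encodes a receptor present in rodents that is a pseudogene in humans, and its coupling is not settled enough to place it in a class here. The gene lies on chr1:121509842-121528465 (mm10, minus strand) and has 2 exons in GENCODE. Htr5b had 165, 135 and 181 normalized counts in IP of pools 1, 2 and 3, against 28.1, 40.6 and 8.56 in Input, so the lowest IP library was over 3 times the highest Input library. Its log2 fold change was 2.83 (SE 0.45, limma adjusted p = 1.4e-04), which ranked 40 among 14859 tested genes, and IP was above Input in all 3 pools, by log2 ratios of 2.51, 1.71 and 4.25. The Input values stand for about 16, 22 and 5 reads, so the size of the ratio was less certain than its direction, and without the Input library of pool 3 the log2 fold change was 2.20 (adjusted p = 4.7e-05). The genes whose 6 values ran most like those of Htr5b, by Euclidean distance of mean-centred log2 values, were Wfdc3 at 0.87, BC039966 at 1.05 and Snhg10 at 1.11.

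Htr2a was the member most depleted. It encodes a Gq/11-coupled receptor of cortical pyramidal cells that is the main target of serotonergic psychedelics, and it lies on chr14:74640840-74709494 (mm10, plus strand) with 3 exons. Htr2a had 0, 9.21 and 13.6 normalized counts in IP of pools 1, 2 and 3, against 85.1, 69.6 and 62.5 in Input. These are about 0, 4 and 6 reads in IP, against 49, 38 and 36 reads in Input, and the 0 in pool 1 allows a value of up to 6.83 normalized counts (3 reads). The lowest Input library was therefore several times the highest IP library. The log2 fold change was -3.78 (SE 0.82, limma adjusted p = 0.00148), which ranked 69 from the bottom of all tested genes, and it was -2.58 (adjusted p = 1.8e-04) without the IP library of pool 1. Markers of cortical and hippocampal excitatory neurons moved in the same direction, with 5 of 6 lower in IP and summed values of 1817, 3403 and 3009.9 in IP, against 11491, 8009 and 5846 in Input. The defining marker of that list, Slc17a7, the vesicular glutamate transporter of these cells, had 1143, 2258 and 1869.7 normalized counts in IP, against 8572, 6028 and 4309 in Input. The list had a median log2 fold change of -1.30. All astrocyte (median -2.49), oligodendrocyte (-2.54), microglia (-2.62) and ependymal (-2.07) markers were lower as well. All 5 GABAergic neuron markers and all 4 LS markers were higher. The part of any of these cell types in the Htr2a difference was not tested. The 6 values of Htr2a were most like those of Nwd1 (distance 0.46), Ackr2 (0.67) and Sp7 (0.71).

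Htr2c, the other Gq/11-coupled member, did not pass the test. Its transcript is edited by ADAR enzymes and it is abundant in the choroid plexus as well as in neurons. Htr2c had 329.8, 369.6 and 306 normalized counts in IP of pools 1, 2 and 3, against 377, 266 and 374 in Input. The groups overlapped, with IP above Input in pool 2 and below it in pools 1 and 3. Limma gave a log2 fold change of -0.00 (SE 0.17, limma adjusted p = 0.99), and its 95% confidence interval of -0.37 to 0.36 stayed within a 2-fold change both ways under the deposited scaling. Markers of choroid plexus differed by pool, with summed values of 532, 726 and 2514 in IP, against 431, 1200.3 and 14745 in Input. Ttr, which defines that list, had 16.1, 111 and 1699 normalized counts in IP, against 22.3, 607 and 12849.9 in Input. Their part in the values of Htr2c was not tested.

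**Figure D2:**
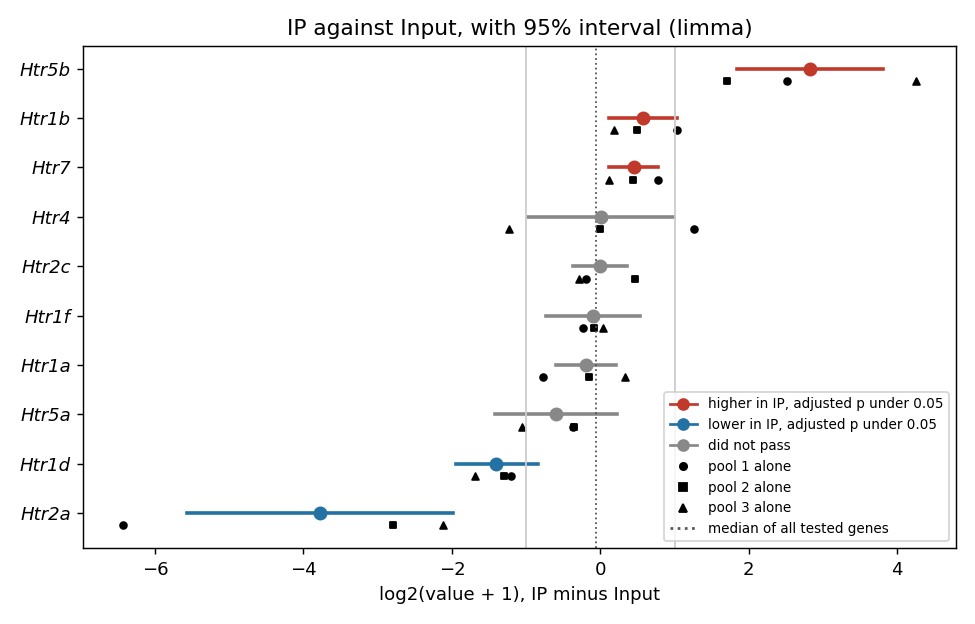
Log2 fold change (IP minus Input, on log2(value + 1)) of each serotonin receptor gene from limma, with its 95% interval as a bar and the 3 pools taken alone as black markers. Red and blue mark an adjusted p under 0.05 with IP higher or lower, grey lines stand at a 2-fold change and the dotted line at the all-gene median of -0.06. The pools of Htr4 are spread from -1.23 to 1.26, and the Htr2a point of pool 1 rests on a value of 0 in IP.

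Among the Gi/o-coupled members, Htr1d was depleted. It encodes a receptor found on serotonin and other axon terminals and lies on chr4:136423524-136444398 (mm10, plus strand), with up to 3 exons. Htr1d had 89.1, 133 and 72.6 normalized counts in IP of pools 1, 2 and 3, against 206, 329.9 and 236 in Input. The groups did not overlap, and pool 2 was the highest in both. This was a log2 fold change of -1.40 (SE 0.26, limma adjusted p = 4.0e-04), with pool log2 ratios of -1.20, -1.30 and -1.69. Its 6 values were very close to those of E130102H24Rik (distance 0.16), Hvcn1 (0.19) and Fkbp9 (0.23).

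Htr1b, whose receptor acts on axon terminals to reduce transmitter release, was higher in IP by less than 2-fold. It lies on chr9:81628291-81633828 (mm10, minus strand) and has up to 2 exons. Htr1b had 202, 165 and 166 normalized counts in IP of pools 1, 2 and 3, against 98.8, 117 and 146 in Input. The groups did not overlap, but the pools differed, with log2 ratios of 1.03, 0.49 and 0.18. Its log2 fold change was 0.57 (SE 0.21, limma adjusted p = 0.0316), and this call was lost without any 1 of the IP library of pool 1 (0.47), the Input library of pool 1 (0.43) or the Input library of pool 2 (0.56), and without pool 1 (0.34) or pool 2 (0.61). The Htr1b value is also uncertain because D430036J16Rik, on the opposite strand, overlaps its exons by 852 bases and the sources used here do not say whether counting used strand. D430036J16Rik had 408, 359 and 407 normalized counts in IP, against 185, 210.0 and 179 in Input, a log2 fold change of 1.03 (SE 0.15, limma adjusted p = 6.7e-05). Its part in the Htr1b difference was not tested. No other member has exons that overlap those of another gene in GENCODE.

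Htr1a encodes the classic somatodendritic Gi/o receptor, which hyperpolarizes neurons through GIRK channels. It has a single exon on chr13:105443639-105448122 (mm10, plus strand). Htr1a had 259, 316 and 349.7 normalized counts in IP of pools 1, 2 and 3, against 444, 351 and 277 in Input. The groups overlapped, and the pools went both ways: IP was below Input in pools 1 and 2 and above it in pool 3, with log2 ratios of -0.78, -0.15 and 0.33. The log2 fold change of -0.20 (SE 0.19, limma adjusted p = 0.369) had a 95% confidence interval of -0.60 to 0.21.

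Htr1f and Htr5a, also Gi/o-coupled, did not pass the test. Htr1f, the receptor targeted by the migraine drug lasmiditan, had 53.1, 89.6 and 70.7 normalized counts in IP of pools 1, 2 and 3, against 62.3, 95.5 and 69.3 in Input. The pools ran in parallel in both groups, pool 2 being highest and pool 1 lowest, and the log2 fold change was -0.10 (SE 0.29, limma adjusted p = 0.787, 95% confidence interval -0.73 to 0.54). Htr5a had 52.8, 52.5 and 22.6 normalized counts in IP, against 68.5, 67.8 and 48.2 in Input. Each pool was lower in IP, but the groups overlapped, with a log2 fold change of -0.60 (SE 0.38, limma adjusted p = 0.182, 95% confidence interval -1.42 to 0.22). At about 10 to 23 reads per IP library, a 2-fold lower level of Htr5a was within that interval.

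Of the Gs-coupled members, Htr7 was the most abundant per kilobase and was slightly higher in IP under the deposited scaling, with values of -0.04 and -0.02 under 2 of the others. Its receptor is known from thalamus, hippocampus and the circadian system, and the gene lies on chr19:35958734-36057507 (mm10, minus strand). Htr7 had 737, 701 and 736 normalized counts in IP of pools 1, 2 and 3, against 428, 517 and 680.0 in Input. The IP libraries lay close together while the Input libraries were spread, and the groups did not overlap. Its log2 fold change was 0.45 (SE 0.15, limma adjusted p = 0.0226), and this call was lost without any 1 of the IP library of pool 1 (0.43), the IP library of pool 3 (0.43), the Input library of pool 1 (0.29) or the Input library of pool 2 (0.43), and without pool 1 (0.28) or pool 2 (0.45). With limma's variances not tied to the mean level it did not pass (adjusted p = 0.0761).

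Htr4, whose Gs-coupled receptor modulates learning and appetite circuits, gave no common direction. Htr4 had 62.5, 76.2 and 35.7 normalized counts in IP of pools 1, 2 and 3, against 25.4, 76.9 and 85 in Input. IP was above Input in pool 1, level with it in pool 2 and below it in pool 3, by log2 ratios of 1.26, -0.01 and -1.23. The log2 fold change was 0.01 (SE 0.45, limma adjusted p = 0.99), and its 95% confidence interval of -0.97 to 0.99 almost reaches a 2-fold change both ways, so these libraries set no narrow limit on Htr4.

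Whether the small differences pass can depend on how libraries are scaled. Htr5b, Htr1d and Htr2a keep their direction and call but not their exact size. The deposited scaling put the median of all tested genes at -0.06. Scaling to library size put that median at -0.54, scaling on 13 pan-neuronal genes at -0.52 and scaling to the upper quartile at -0.35. The count of genes enriched and depleted past 2-fold was then 671 and 4554, 701 and 4458, and 1062 and 3644, beside 1876 and 2556 under the deposited scaling. Htr7 changed sign under library size (-0.04) and on pan-neuronal genes (-0.02), and it was 0.16 under the upper quartile. Htr1b was 0.09, 0.11 and 0.28 in the same order, and neither gene passed under any of these. Relative to the median of all genes, Htr1b stood at 0.63 and Htr7 at 0.50 to 0.51 under the deposited scaling and these 3 alike, since a scaling shifts all genes together. Htr1a then passed as lower (-0.68, -0.66 and -0.49), as did Htr2c (-0.48 and -0.46) and Htr5a (-1.07 and -1.05) under library size and on pan-neuronal genes. An offset for transcript length put the all-gene median at 0.19, and Htr1b (1.11), Htr7 (0.74) and Htr2c (0.55, adjusted p = 0.00945) passed as higher with it. Htr5b, Htr1d and Htr2a passed in the same direction under every scaling and with each library or pool left out.

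**Figure D3:**
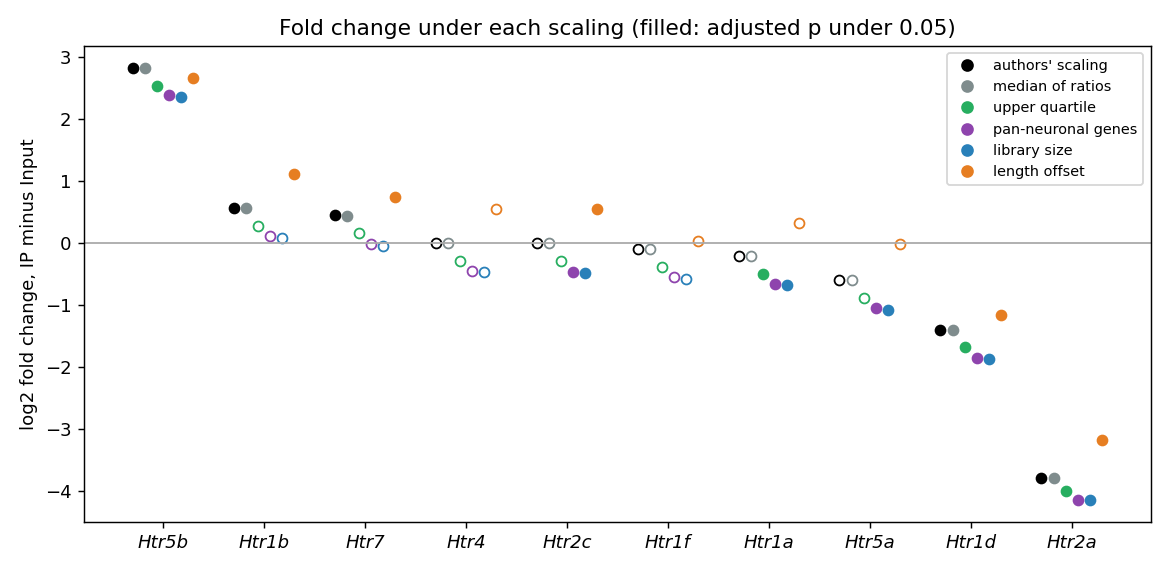
Log2 fold change (IP minus Input) of each serotonin receptor gene under 6 scalings, where filled points passed at an adjusted p under 0.05. Htr5b stays above and Htr1d and Htr2a stay below 0 under all of them, while Htr7 is 0.45 under the authors' scaling and -0.04 under library size.

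Levels were compared between genes only after division by the length in kilobases of each gene's longest transcript. In IP, Htr7 stood first at 235 ± 6.59 normalized counts per kb (SD, n = 3), above Htr5b at 82.9 ± 12, Htr1a at 68.7 ± 10.2 and Htr2c at 68.7 ± 6.55. Htr1b (37.6 ± 4.49), Htr1d (33.9 ± 10.8) and Htr1f (27.6 ± 7.09) formed a middle group. Htr4 (12.5 ± 4.42), Htr5a (7.93 ± 3.22) and Htr2a (1.36 ± 1.24) were lowest. Of neighbours in this order, the libraries of Htr7 and Htr5b, of Htr2c and Htr1b, of Htr1f and Htr4 and of Htr5a and Htr2a did not overlap, and all other neighbours did.

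In Input, Htr7 again stood first at 176 ± 41.6 normalized counts per kb (SD, n = 3), followed by Htr1d at 88.5 ± 22.3, Htr1a at 79.7 ± 18.7 and Htr2c at 69.4 ± 13.0. Htr1f (29.4 ± 6.79) and Htr1b (25.5 ± 5.07) came next, and Htr4 (13.4 ± 6.93), Htr5b (13.3 ± 8.35), Htr2a (12.9 ± 2.06) and Htr5a (11.4 ± 2.14) overlapped at the low end. Htr5b therefore held the second place in IP and the eighth in Input, and Htr1d held the sixth in IP and the second in Input. With coding length in place of transcript length, 6 genes kept their place in IP and 2 in Input. Htr5b was then the fifth in IP and the tenth in Input, and Htr1d the sixth in IP and the fourth in Input. Htr7 stayed first in both by its mean, although in Input its libraries then overlapped those of Htr1a.

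Under the deposited scaling, the summed level of all 10 genes per kb was 567, 587 and 575 in IP of pools 1, 2 and 3. In Input it was 479, 538 and 541, so every IP library lay above every Input library. This sum depends on the scaling between libraries and is given under the deposited one only. Htr5b made up 11.9% to 16.3% of that sum in IP libraries and 0.817% to 3.90% in Input libraries. Htr1d made up 4.34% to 7.82% in IP and 14.8% to 21.1% in Input, and Htr2a 0% to 0.423% in IP and 2.06% to 3.17% in Input. Htr1b made up 5.95% to 7.55% in IP and 4.36% to 5.72% in Input. Shares do not depend on the scaling between libraries, and for these 4 genes they did not overlap between the groups. The share of Htr7 was 38.8% to 42.2% in IP and 29.0% to 40.8% in Input, which overlapped, as did the shares of the remaining 5 genes. By coupling, the 5 Gi/o genes together made up 28.5%, 33.3% and 29.5% in IP, against 47.5%, 49.4% and 38.8% in Input. The Gs pair made up 44.6%, 41.6% and 42.9% in IP, against 30.1%, 34.2% and 44.2% in Input. Htr5b was placed in no class. Counting it as Gi/o would raise the IP shares more than the Input shares, and the Gi/o shares of the groups would then overlap. Of the 5 Gi/o genes only Htr1d had shares wholly lower in IP, so the sums do not describe each gene of the class.

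**Figure D4:**
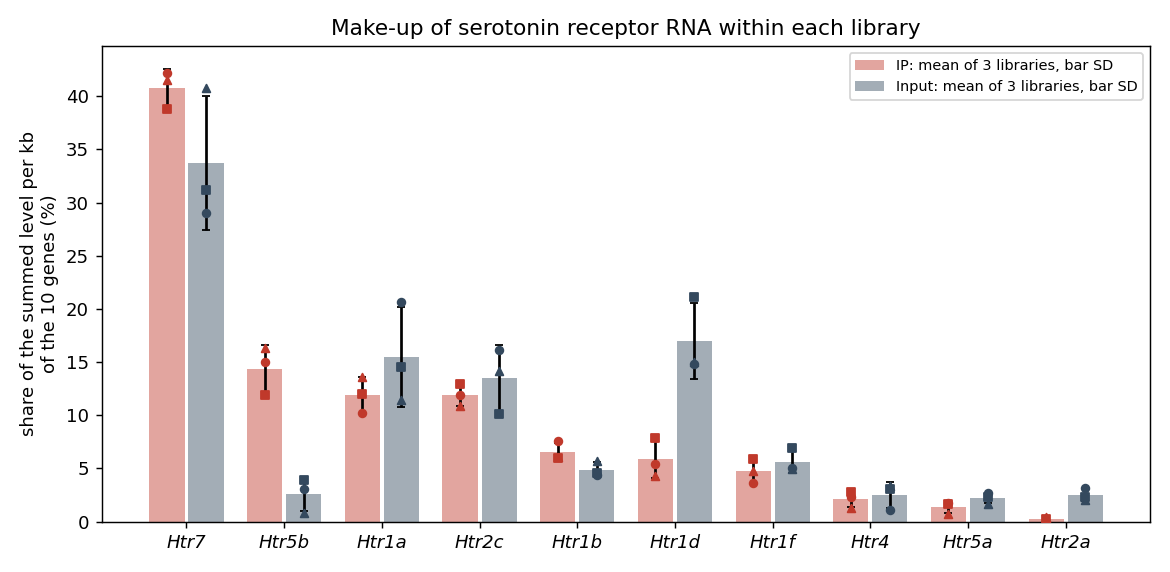
Share of the summed level per kb of the 10 serotonin receptor genes taken by each gene (percent), with IP left of Input, bars at the mean of 3 libraries, error bars of 1 SD and a point for each library. Htr5b takes 11.9% to 16.3% in IP and 0.817% to 3.90% in Input, and Htr1d takes 4.34% to 7.82% in IP and 14.8% to 21.1% in Input.

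The files hold 4 further serotonin receptor genes. Htr3a, the ion channel subunit of a class of cortical interneurons, had 9.07, 16.2 and 20.1 normalized counts in IP of pools 1, 2 and 3, against 87.8, 57.0 and 67.5 in Input, a log2 fold change of -2.20 (SE 0.41, limma adjusted p = 4.6e-04). Htr6, a Gs-coupled receptor abundant in striatum, had 19.6, 30.5 and 26.0 in IP, against 41.7, 44.9 and 44.5 in Input. The Htr6 groups did not overlap, but its log2 fold change of -0.78 did not pass (limma adjusted p = 0.0757), though it did under library size (-1.25), the upper quartile (-1.06) and pan-neuronal genes (-1.23). Htr2b and Htr3b were below the filter, with no library of either above 5.09 normalized counts. Both Htr3a and Htr6 thus lay below Input in every pool, as did Htr2a, Htr1d and Htr5a.

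The genes around the receptors were described from fixed lists. Of 13 genes for serotonin synthesis, storage, uptake and breakdown, 11 were tested. Of these, 2 rose in IP against Input, 5 fell and 4 did not pass the test, with a median log2 fold change of -0.59. For this and the following lists the share over all tested genes is 31.4% higher and 32.2% lower, with a median of -0.06. Slc18a2, the vesicular monoamine transporter, was higher at 1.20 (260, 490.3 and 385 normalized counts in IP, against 169.5, 177 and 133 in Input), as was Pts, an enzyme of tetrahydrobiopterin synthesis, at 0.94, which was 0.26 and did not pass under the length offset. Ddc, the decarboxylase that makes serotonin, was lower at -1.20, and Qdpr, which recycles tetrahydrobiopterin, was lower at -0.59. Tph2, the enzyme that limits serotonin synthesis in neurons, had 43.8, 20.6 and 18.1 normalized counts in IP, against 15.4, 11 and 10.3 in Input, and did not pass (log2 fold change 1.02, limma adjusted p = 0.104). The other 5 serotonin neuron markers, Slc6a4, Fev, Gata3, En1 and Lmx1b, were at or near 0 in all libraries, at most 6.74.

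Of the 9 genes for Gi/o alpha subunits and GIRK channels, 4 rose in IP against Input, 2 fell and 3 did not pass the test (median log2 fold change 0.32). Gnai1 was higher at 0.71 and Gnai2 at 0.50, the second of which was 0.02 under library size and 0.04 on pan-neuronal genes and then did not pass, while Gnai3, the third inhibitory alpha subunit, was lower at -1.16. Kcnj6, which encodes the GIRK2 channel subunit, was higher at 0.77 (limma adjusted p = 0.0305). It was 0.29 to 0.48 and did not pass under library size, the upper quartile and pan-neuronal genes. Under median of ratios (0.77) and the length offset (1.19) it passed. Kcnj6 did not pass without any 1 of the IP library of pool 2 (0.74), that of pool 3 (0.77), the Input library of pool 2 (0.82) or that of pool 3 (0.53), nor without pool 2 (0.78) or pool 3 (0.53). Of 8 tested genes for Gq/11 alpha subunits, phospholipase C beta and inositol trisphosphate receptors, 1 was higher and 5 were lower (median -0.40). Gna11 was the higher one at 0.39, but it was -0.09 under scaling to library size and -0.07 on pan-neuronal genes. Plcb3 and Itpr2 were lower at -3.07 and -2.17, and Plcb1, another phospholipase C beta gene, at -0.42, but under the offset for transcript length it passed as higher at 0.23 (adjusted p = 0.0273).

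Of 10 tested genes for Gs-type alpha subunits and adenylyl cyclases, 1 was higher in IP and 4 were lower (median -0.47). Gnas, which encodes the stimulatory alpha subunit, was the higher one, with 86374, 71536 and 79979 normalized counts in IP of pools 1, 2 and 3, against 35876, 33617 and 33334 in Input (log2 fold change 1.21). Gnal, the related subunit of striatal neurons, did not pass at -0.24 (adjusted p = 0.10). With the pool as a block Gnal passed as lower at the same value (adjusted p = 0.0332), as it did under library size (-0.73), the upper quartile (-0.53) and pan-neuronal genes (-0.71), and it passed as higher under the length offset (0.36). Adcy3, an adenylyl cyclase gene, was lower at -0.98, and at -0.42 under the length offset. Of 12 receptor partners and regulators, 2 were higher, 3 were lower and 7 did not pass (median -0.03). S100a10, the p11 protein that binds Htr1b and Htr4 receptors, was higher at 1.52, with 1316, 986 and 1143 normalized counts in IP, against 498, 360.5 and 349 in Input. Under the length offset S100a10 was 0.59. Adarb2, a relative of the editing enzymes without known activity, was lower at -1.48 and at -0.84 with that offset, and the receptor kinase gene Grk2 was lower at -0.25 (adjusted p = 0.0371), with 0.12 under the length offset and -0.35 to -0.18 when a library or pool was left out, of which 7 of 9 did not pass. Deaf1, a regulator of Htr1a transcription, did not pass at -0.05, but passed as lower under library size (-0.53), the upper quartile (-0.34) and pan-neuronal genes (-0.51). In each of these lists, genes higher and lower in IP stood side by side.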

How the data were processed

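RNA of dissected LS was measured in 3 IP and 3 Input libraries, 1 of each per pool. The deposited values are a signal, read counts that the authors divided by DESeq2 factors and did not log. STAR, DESeq2 and mm10 stand in the processing notes of the submitters. Not given in the sources used here are versions, the counting program, its annotation and its strand setting. The methods of the paper name TopHat and Cufflinks for its own enrichment table. Of 24972 entries, 26 carry a date in place of a symbol (0.188% to 0.32% of each total) and were left out.

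Whole reads could not be recovered (47.9% to 69.9% of values under 20 reads lay within 0.05 of a whole read), so the test was limma 3.58.1 (R 4.3.3) with a variance trend on log2(value + 1), for genes that reached 10 normalized counts in 3 or more of 6 libraries, with Benjamini-Hochberg adjustment over all of them. The added 1 shrinks fold changes of low genes. Ratios of group means are on the linear scale and can differ from the log2 fold changes, which average logs. Reads per value are estimates in which the most frequent low value of each library was taken as 1 read. Lengths and coordinates are those of GENCODE M21 on mm10. Figures were drawn with matplotlib 3.10.9.

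The pools are separate mice. The protocol in the labels splits each pool into IP and Input, and libraries of equal number were taken as 1 pool, which the labels do not state. Deviations from group means correlated at 0.11, 0.095 and 0.099 for equal numbers and at -0.083 to -0.013 for unequal numbers. The methods of the paper do not mention pairing. The fit has no pool term, and a fit with the pool as a block was an alternative. Other alternatives were 4 scalings, 3 filters, pseudocounts 0.5 and 5, no variance trend, a length offset and each library or pool left out. The members and gene lists were chosen with earlier results of these data known. Named in each pathway list are the 2 genes of highest mean and the 2 of largest change, and every gene of a list of 4 or fewer. Of marker lists the defining gene is named. The serotonin neuron markers listed at or near 0 were named after their values were seen. The Htr4 promoter is not reported here, and the promoter of Htr5b was not analysed here.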

Additional observations from a re-analysis of the deposited data

How the results depend on the processing

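With the pool as a replicate block no serotonin receptor gene changed its call, with 3 higher and 2 lower. Gnal (limma adjusted p = 0.0332), Ttr (adjusted p = 3.0e-05) and the endothelial marker Cldn5 (adjusted p = 0.033) newly passed as lower. The count of 3 higher was 1 when libraries were scaled by their size, by the upper quartile or on pan-neuronal genes, and lay between 1 and 3 with a library or pool left out. The count of 2 lower was 5 under library size and on pan-neuronal genes, and it was 1 when each library had to reach 10, a filter that removes Htr2a and Htr5b and leaves 1 gene past 2-fold in place of 3. The order of levels by coding length kept 6 of 10 places in IP and 2 of 10 in Input. Under the length offset Htr1a was 0.33, Htr1f 0.03, Htr2c 0.55 (adjusted p = 0.00945), Plcb1 0.23, Gnal 0.36, Grk2 0.12 and Deaf1 0.18. Htr4 was -0.47 under library size, -0.28 under the upper quartile, -0.45 on pan-neuronal genes and -0.00 with a pseudocount of 5. Htr7 was -0.04 and Gna11 -0.09 under library size, and -0.02 and -0.07 on pan-neuronal genes. With a library or pool left out, Htr1a lay between -0.46 and 0.09, Htr1f between -0.28 and 0.10, Htr2c between -0.24 and 0.14, Htr4 between -0.62 and 0.63, Deaf1 between -0.12 and 0.03 and Ttr between -4.24 and 0.31. The cause of these shifts was not tested, beyond what each setting changes by its construction. Depth limits Htr2a in IP and Htr5b in Input most, and estimates of reads cover counting error only.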
